A study of Homo sapiens with 34 samples.

Results

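The subunits of cohesin and condensin were followed at the mRNA level in a pair of hTERT-RPE1 lines by SLAM-seq. The members were the cohesin genes SMC1A, SMC3, RAD21, STAG1 and STAG2 and the condensin genes SMC2, SMC4, NCAPD2, NCAPG and NCAPH, 10 of the 19041 gene symbols counted. They were picked by gene name and not by a threshold on a measured value, though with earlier results of these data known. The deposited tables list 71668 annotated 3′ UTR intervals, and 105 of them carry the name of 1 member. The name field often repeats a symbol, and an interval was taken for a member when each entry of its name was that member. A match to the bare symbol alone would have kept none of the reads of RAD21 and NCAPH and 0.13% of those of SMC2.

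hTERT-RPE1 is an immortalised line of human retinal pigment epithelium, and both populations carried a doxycycline-inducible shRNA against CCND1, the gene of cyclin D1. The population labelled overexpression also carried an inducible, FLAG-tagged CCND1 allele that the shRNA does not target. Both were made by lentiviral transduction and selected by GFP or G-418, and the study describes the lines as polyclonal for CCND1 expression. All cells received 0.5 µg/mL doxycycline, and on day 4 they were given 10 µM 4-thiouridine (s4U) for 24 h, in medium renewed every 3 h, and then a chase in 1 mM uridine. Unlabelled cells were harvested with the 0 min samples after 10 µM uridine instead of s4U. The study describes the knockdown cells as large and the overexpression cells as small and asks whether mRNA turnover differs with size. There were 34 libraries, 17 per line, which form 4 time courses by line and replicate number, with unlabelled, 0, 180, 360, 720 and 1440 min in all 4 and a varying set of 10, 20, 45 and 90 min. Nothing in the labels states that a line's courses were grown separately, so p-values measure the spread between courses, which may be technical.

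Cohesin is a ring of SMC1A, SMC3 and the kleisin RAD21, to which either STAG1 or STAG2 binds, and it holds sister chromatids together and extrudes chromatin loops. Condensin has the same plan, with SMC2 and SMC4 as the ATPase arms, NCAPH as the kleisin and NCAPD2 and NCAPG as the HEAT-repeat subunits of condensin I, and it compacts chromosomes in mitosis. SMC2 and SMC4 also serve condensin II. In cycling cells condensin transcripts and several cohesin regulators are made mainly in S phase and G2, while core cohesin is expressed throughout interphase.

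Each library held 14712332 to 44480703 3′ UTR reads. By correlation of log2(CPM + 1) with the mean of the other libraries of the line, over 9534 genes, 3 libraries stood apart, at r of 0.924 for unlabelled overexpression course 1, 0.882 for 720 min of the same course and 0.898 for unlabelled knockdown course 1, against 0.969 to 0.990 in the other 31. Reads in the annotated 3′ UTR intervals of CCND1 had a median of 163 CPM (82.3 to 200.2) in the knockdown line and 58.3 CPM (41.8 to 82.1) in the overexpression line. Reads in the native 3′ UTR report the shRNA target in both lines and do not cover a transgene without that 3′ UTR. Whether any of the CCND1 intervals lies in coding exons, as intervals of SMC4 do, was not checked. Uninduced cells are not analysed here. The CCND1 reads therefore check neither label, and each direction below is between the lines as labelled. Of the marker lists, 2 of 5 epithelial genes (KRT8 and KRT18), 2 of 8 pigment epithelium genes (MITF and OTX2) and 4 of 4 mesenchymal genes averaged at least 1 CPM in each line. RPE65, a defining pigment epithelium gene, and the leukocyte gene PTPRC had medians of 0 CPM in both lines, 0 of 3 endothelial genes reached 1 CPM, and of the leukocyte list the lysosomal gene CD68 alone did, at medians of 26.1 and 22.9 CPM. Of the 4 germline cohesin genes, SMC1B and RAD21L1 were at 0 in all 34 libraries. In the knockdown and overexpression lines, STAG3 had course means of 0.176 and 0.370 CPM and REC8 of 1.75 and 1.05 CPM.

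Because the members moved together between the lines, as given below, the promoters of those in the RefSeq promoter table (GRCh38.p14) were searched for the letters of 3 motifs known from cell cycle genes. The 250 bases before each annotated start were searched on both strands, in 14 windows of 9 members. RAD21 was not searched. The cell cycle homology region (TTTGAA or TTCGAA), a site through which many G2 and mitotic genes are held down in resting cells, was found for NCAPD2, NCAPG, SMC3 and SMC4, 4 of 9 members, and in 14.3% of all 35116 promoter windows. The E2F letters (TTT, then C or G at 2 places, then CGC) were found for SMC1A, STAG1 and STAG2, 3 of 9, and in 2.79% of all windows. The CCAAT box was found for NCAPD2, NCAPH, STAG1 and STAG2, 4 of 9, and in 32.0% of all windows. Several members have more than 1 window, so the shares are not on the same footing, and a match of letters is not a bound site. No matches of different motifs overlapped. A match is shown for each of the 8 members that had one, read 5′ to 3′ on the strand of the gene with the motif in capitals and hg38 coordinates.
NCAPG, cell cycle homology region ending at -30, chr4:17810929-17810964, plus strand: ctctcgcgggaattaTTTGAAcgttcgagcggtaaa
SMC4, the same motif on the opposite strand ending at -70, chr3:160399560-160399595, plus strand: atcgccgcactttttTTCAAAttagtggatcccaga
NCAPD2, the same motif ending at -140, chr12:6493942-6493977, plus strand: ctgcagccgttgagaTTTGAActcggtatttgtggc
SMC3, the same motif on the opposite strand ending at -146, chr10:110567529-110567564, plus strand: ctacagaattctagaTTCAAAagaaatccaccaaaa
NCAPH, CCAAT box ending at -108, chr2:96335639-96335673, plus strand: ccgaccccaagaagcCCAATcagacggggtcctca
SMC1A, E2F letters ending at -13, chrX:53422655-53422689, minus strand: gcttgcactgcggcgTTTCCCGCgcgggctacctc
STAG1, E2F letters ending at -176, chr3:136752539-136752576, minus strand: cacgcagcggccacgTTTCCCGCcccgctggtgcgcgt
STAG2, E2F letters ending at -44, chrX:123961992-123962029, plus strand: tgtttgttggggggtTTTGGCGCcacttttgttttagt

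The first comparison asked whether the subunits differ in abundance between the lines. All 10 members were lower in the knockdown line, by 1.39-fold for STAG2 to 2.77-fold for SMC4, and each passed the test (edgeR's quasi-likelihood test on counts summed over the 6 shared samples of a course, 2 courses against 2, Benjamini-Hochberg adjusted p under 0.05 over 13165 genes). Of all genes tested, 10.7% passed as lower and 11.2% as higher, 21.9% in all, and 34.8% had an unadjusted p under 0.05. The members had a median log2 fold change of -0.92, with -0.91 for cohesin and -0.999 for condensin, against -0.01 over all genes tested. In bulk RNA, fewer cells that express a gene and less of its mRNA per cell cannot be told apart. The proliferation genes described further on were lower in the same line, and their part in the members' difference was not tested.

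**Figure D1:**
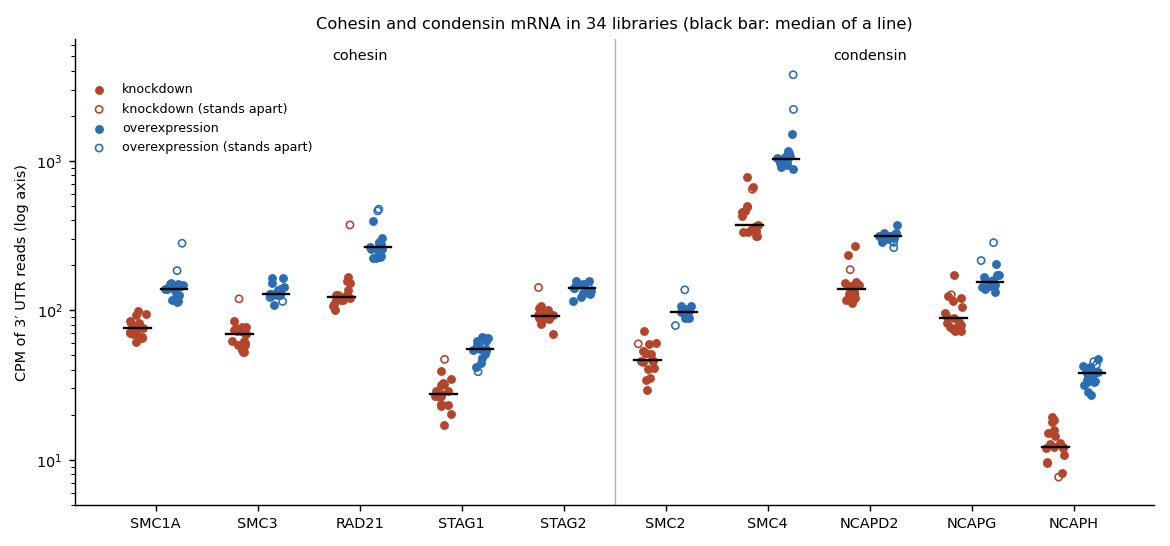
Counts of 3′ UTR reads scaled to library size (CPM, log axis) of the 5 cohesin and 5 condensin genes in 34 libraries, 17 of the knockdown line in red and 17 of the overexpression line in blue, with the 3 libraries that stood apart as open circles and the median of a line as a black bar. For SMC1A, SMC2, SMC4 and NCAPH, 4 of 10 members, the lines do not overlap over 34 libraries, as for 1.18% of all genes tested in this direction, and SMC4 reaches 3773 CPM in the 720 min library of overexpression course 1.

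Among the ring subunits of cohesin, SMC1A stood at 80.8 and 75.7 CPM in knockdown courses 1 and 2 and at 159.8 and 135.8 CPM in overexpression courses 1 and 2. The log2 fold change was -0.92 (SE 0.13, adjusted p = 0.000947). SMC3, its partner ATPase, was at 80.1 and 65.6 CPM against 139.3 and 131.9 CPM, a log2 fold change of -0.90 (SE 0.14, adjusted p = 0.00129). For both SMC genes each knockdown course lay below each overexpression course. With 2 courses per line this was also so for genes that did not pass, such as NIPBL, MAU2 and WAPL. Its share over all genes was not counted.

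RAD21, the kleisin that closes the ring and is cut by separase at anaphase, was at 175.2 and 123.1 CPM against 317.4 and 240.6 CPM, with a log2 fold change of -0.91 (SE 0.18, adjusted p = 0.00641). Its first course was the higher one in both lines, and the unlabelled library of knockdown course 1, which stood apart, held 372.9 CPM of RAD21 while the other 16 knockdown libraries held 100.4 to 166.9 CPM. With the unlabelled and 720 min libraries left out, the log2 fold change of RAD21 was -0.95.

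The STAG subunits differed in the size of the change. STAG1 was at 28.3 and 26.7 CPM against 54.1 and 55.1 CPM, a log2 fold change of -0.99 (SE 0.13, adjusted p = 0.000649). STAG2 was at 102.4 and 94.98 CPM against 141.3 and 132.4 CPM, a log2 fold change of -0.47 (SE 0.12, adjusted p = 0.0193), the smallest of the 10. The 95% intervals of STAG1 (-1.29 to -0.70) and STAG2 (-0.75 to -0.20) overlapped, and the difference between them was not tested. The call of STAG2 was lost without knockdown course 2 (log2 of -0.42, adjusted p = 0.118), without overexpression course 1 (-0.43, adjusted p = 0.111) and in the 0 min libraries alone (-0.46, adjusted p = 0.0667).

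In condensin, SMC4 was at 494.2 and 443.9 CPM in the knockdown courses and at 1580 and 1016.5 CPM in the overexpression courses. Its log2 fold change was -1.47 (SE 0.19, adjusted p = 0.000508), of which part rested on reads in coding exons of the libraries that stood apart, as described below. SMC2, the other ATPase arm, was at 56.4 and 49.1 CPM against 104.2 and 96.0 CPM, with a log2 fold change of -0.93 (SE 0.13, adjusted p = 0.000977).

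NCAPH, the kleisin of condensin I, had the fewest reads of the members, at 11.8 and 14.8 CPM against 40.0 and 32.8 CPM, and a log2 fold change of -1.46 (SE 0.17, adjusted p = 0.000347). NCAPD2 was at 174.3 and 147.8 CPM against 322.7 and 319.6 CPM, with a log2 fold change of -0.999 (SE 0.13, adjusted p = 0.000536). NCAPG was at 99.9 and 107.3 CPM against 176.8 and 157.2 CPM, with a log2 fold change of -0.69 (SE 0.13, adjusted p = 0.00354). No knockdown course of these 3 genes reached an overexpression course, with the same limit as for the SMC genes of cohesin.

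**Figure D2:**
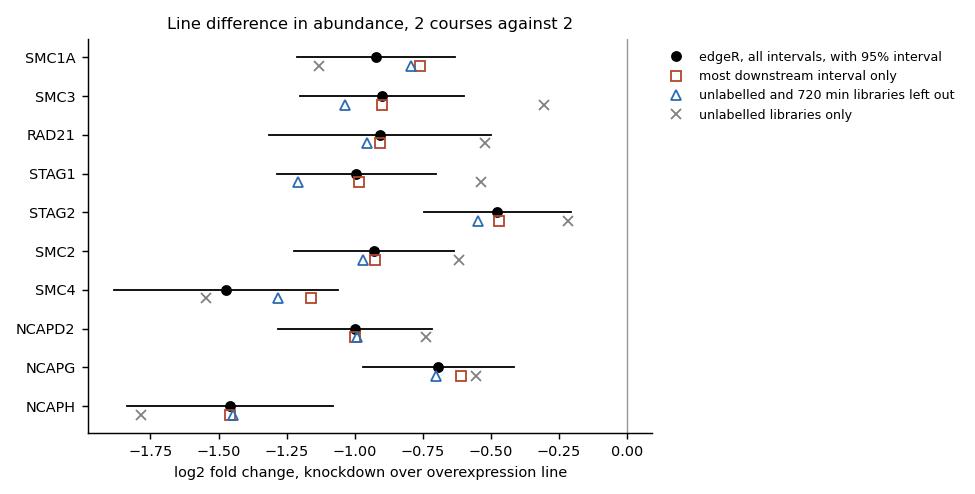
Log2 fold change of each member between the lines (knockdown over overexpression), with the 95% interval of the edgeR fit as a line, beside the values from the most downstream interval of each gene, with the unlabelled and 720 min libraries left out, and in the unlabelled libraries alone. All points lie below 0, and those of SMC4 move from -1.47 to -1.16 when the most downstream interval alone is used.

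The difference was also read at single time points. At 0, 180, 360 and 720 min both knockdown libraries lay below both overexpression libraries for 10 of 10 members, where 25.3%, 26.7%, 25.2% and 22.4% of all genes tested did so. At 1440 min this held for 9 of 10 members (25.4% of all genes), and NCAPG overlapped, with 116.0 and 173.3 CPM against 171.7 and 173.3 CPM. In the unlabelled libraries it held for 6 of 10 (17.3% of all genes), and SMC3, RAD21, STAG1 and STAG2 overlapped through the first knockdown course, whose library stood apart. The unlabelled libraries alone, 2 against 2, called 0 members, with log2 values of -0.21 for STAG2 to -1.79 for NCAPH, and 4 of 11613 genes. Over all libraries but the 3 that stood apart, the lines did not overlap for 9 of the 10 members, where the knockdown line lay below without overlap for 2.82% of all genes. The exception was again NCAPG, where 15 of 16 knockdown libraries lay below the lowest of 15 overexpression libraries. Without the unlabelled and 720 min libraries all 10 members were called lower, at log2 values of -0.55 to -1.45, as were 15.3% of 12801 genes.

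Of the genes that work with the members, some were lower and none of these lists held a gene called higher. Condensin II, which acts in the nucleus from prophase on, had 3 of 3 genes lower. NCAPD3 was at 23.4 ± 3.24 CPM (SD, n = 2 courses) in the knockdown line and 50.4 ± 3.56 CPM in the overexpression line. NCAPG2 was at 78.3 ± 1.04 against 147.8 ± 15.1 CPM, and NCAPH2 at 13.6 ± 2.73 against 30.9 ± 6.07 CPM. Their log2 fold changes were -1.11, -0.92 and -1.19 (edgeR adjusted p of 0.000694, 0.000810 and 0.00184).

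Of 14 genes that load, release, acetylate, protect, cleave or position cohesin, 8 were lower and 0 higher, with a median log2 of -0.60 and 14 of 14 below 0. The largest drops were those of the acetyltransferase ESCO2 (log2 of -1.41, SE 0.15), of the centromere protector SGO1 (-1.13, SE 0.14), of CDCA5, also known as sororin, which protects cohesin after replication (-0.90, SE 0.13), and of CTCF, which positions loops (-0.83, SE 0.15). The loader NIPBL, at 25.6 ± 1.84 CPM in the knockdown line and 29.6 ± 0.0685 CPM in the overexpression line, did not pass. Neither did its partner MAU2 (43.9 ± 2.47 and 49.3 ± 2.83 CPM) nor the release factor WAPL (92.0 ± 14.7 and 107.5 ± 4.42 CPM).

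In the SMC5/6 complex, a related ring used in repair, 2 of 6 genes were lower, NSMCE4A (log2 of -0.92, SE 0.13) and SMC6 (-0.72, SE 0.20), 0 were higher and the median was -0.22. Of 8 mitotic chromosome and proliferation genes, 8 were lower, with a median of -0.81. MKI67, a coat protein of mitotic chromosomes, was at -1.22 (SE 0.12), the Aurora kinase AURKB at -1.18 (SE 0.16), the cell cycle kinase CDK1 at -0.87 (SE 0.12) and TOP2A, the topoisomerase that works beside condensin, at -0.82 (SE 0.13). The summed level of this list was 590.4 to 1321.5 CPM in the knockdown line and 1473 to 1921 CPM in the overexpression line. Pigment epithelium markers summed to 49.4 to 111.4 CPM in the knockdown line against 37.4 to 52.8 CPM, epithelial markers to 645.2 to 1384 CPM against 388.8 to 876.8 CPM, and mesenchymal markers to 8621 to 16816 against 8139 to 12194 CPM. Of these lists 4 genes were called higher in the knockdown line and 0 lower. They were fibronectin (FN1) at 1.61, MITF, a regulator of pigment cells, at 0.96, and the keratins KRT8 at 0.92 and KRT18 at 0.63 on the log2 scale, and their part in the members' difference was not tested. Mean course levels of MITF, 76.1 and 38.9 CPM in the knockdown and overexpression lines, made up most of the pigment epithelium sum. OTX2 lay the other way, at 1.81 and 3.19 CPM (log2 of -0.82, not called). Of the 4 tested genes of this list 3 were below 0, with a median of -0.75, though BEST1 and PMEL among them averaged under 1 CPM. The mesenchymal list had a median of 0.19 with 1 of 4 below 0, and VIM was at 0.03 and CDH2 at -0.04.

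The effect of the label was asked by setting the 0 min libraries against the unlabelled ones, 4 against 4 with the line as a covariate. No member was called by edgeR, and neither was any other of the 11826 genes (0.00%), while 402 genes (3.40%) and 2 members, SMC4 and NCAPG, had an unadjusted p under 0.05. DESeq2 called 2 genes, neither of them a member. SMC4 had a log2 fold change of -0.69 (SE 0.24, adjusted p = 0.887) and NCAPG of -0.49 (SE 0.19, adjusted p = 0.887). By course SMC4 was at -1.03 and -0.31 in the knockdown line and at -1.20 and -0.04 in the overexpression line. NCAPG was at -0.81 and -0.60 in the knockdown line and at -0.57 and -0.04 in the overexpression line. The values of the first courses rest on the unlabelled libraries that stood apart. Without both first courses the log2 fold change was -0.17 for SMC4 and -0.32 for NCAPG, and in the most downstream interval alone it was -0.34 for SMC4.

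Abundance was then compared between the end and the start of the chase, with doxycycline present throughout. Of condensin, SMC4 and NCAPG rose, and no cohesin gene passed the test. Between 0 and 1440 min edgeR thus called 2 of 10 members higher and 0 lower, where 2.36% of 11927 genes passed as higher and 2.27% as lower, 4.63% in all. An unadjusted p under 0.05 was reached by 4 of 10 members, NCAPD2 and NCAPH besides, and by 18.3% of all genes. SMC4, NCAPG and NCAPH were higher in all 4 courses, as were 11.7% of all genes. The median log2 change was 0.52 for condensin and 0.08 for cohesin, against 0.00 over all genes tested.

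SMC4 went from 315.4 to 667.0 CPM in knockdown course 1, from 365.9 to 779.5 CPM in knockdown course 2, from 961.8 to 1520 CPM in overexpression course 1 and from 984.1 to 1168 CPM in overexpression course 2. It rose in 4 of 4 courses, by 0.77 on the log2 scale (SE 0.12, adjusted p = 0.000265), and by 0.64 (adjusted p = 0.00144) in its most downstream interval alone. NCAPG went from 72.4 to 116.0 and from 79.8 to 173.3 CPM in the knockdown courses and from 145.4 to 171.7 and from 147.1 to 173.3 CPM in the overexpression courses. Its change was 0.58 (SE 0.14, adjusted p = 0.0168), higher in 4 of 4 courses, and the call was lost without either knockdown course (adjusted p of 0.0784 and 0.13).

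NCAPD2 did not pass, at 0.42 (SE 0.13, adjusted p = 0.0646), and it went from 153.1 to 270.0 and from 139.4 to 233.5 CPM in the knockdown courses against 330.4 to 373.2 and 327.6 to 312.2 CPM in the overexpression courses. It passed under DESeq2 (adjusted p = 0.0323) and in edgeR with a replicate block (adjusted p = 0.0409). NCAPH was at 0.52 (SE 0.18, adjusted p = 0.106) and higher in 4 of 4 courses, and SMC2 at 0.18 (SE 0.13). Of the cohesin genes, SMC1A was at 0.21, RAD21 at 0.12, STAG2 at 0.08, SMC3 at 0.03 and STAG1 at -0.13, with SEs of 0.11 to 0.14 and adjusted p of 0.349 or more.

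Among the related genes, NCAPD3 of condensin II (0.50), the loader NIPBL (0.52), NSMCE4A of SMC5/6 (0.47), TOP2A (0.63) and MKI67 (0.51) passed as higher at 1440 min. STAG3, a germline cohesin gene at under 1 CPM in each course, passed as lower. Of the mesenchymal markers 2 of 4 passed as lower, COL1A1 at -0.69 and CDH2 at -0.42, with a median of -0.41 and 4 of 4 below 0, and their part in the rise of SMC4 and NCAPG was not tested. At 360 min SMC4 was at 0.15 and NCAPG at 0.10, and neither was called. At 720 min SMC4 was at 0.89 (adjusted p = 0.517), to which the library of overexpression course 1 that stood apart contributes a change of 1.97, and NCAPG at 0.60 (adjusted p = 0.405). Both were higher than at 0 min in all 4 courses, 2 of 10 members, as were 9.18% of all genes.

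**Figure D3:**
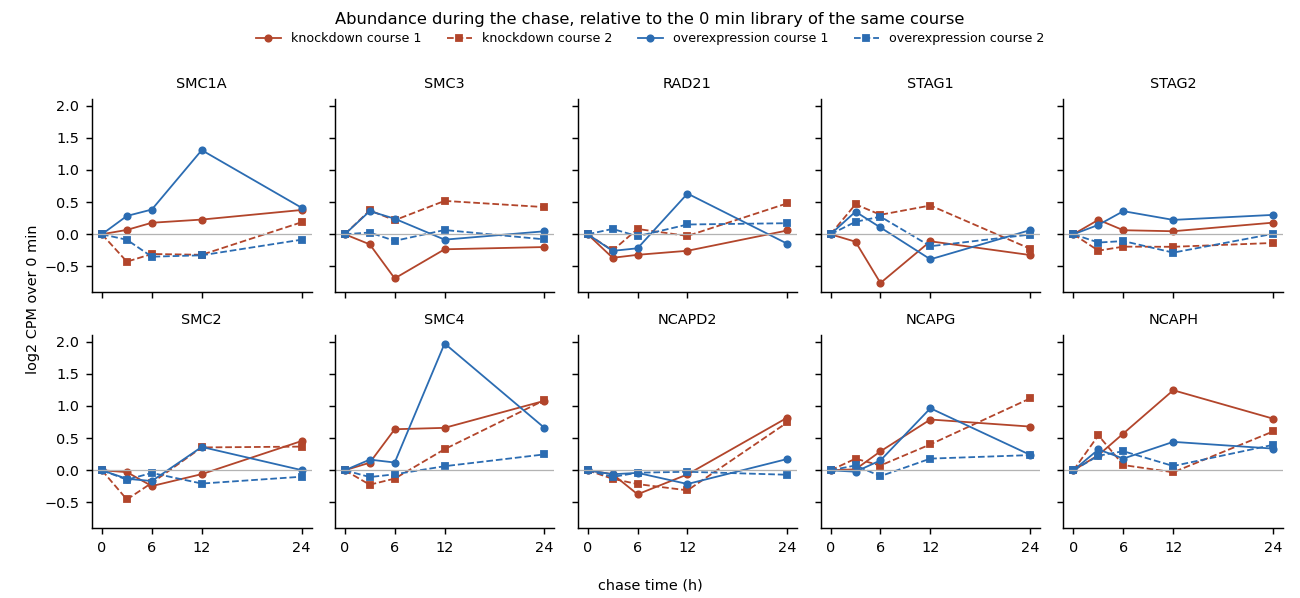
Log2 ratio of CPM at 180, 360, 720 and 1440 min to CPM at 0 min of the same course, against chase time in h, for each member, with the knockdown line in red and the overexpression line in blue, course 1 as a full line and course 2 as a broken line. At the last point both knockdown courses lie above 0 for all members but SMC3, STAG1 and STAG2. The share of all genes for which this holds was not counted. The peak at 12 h in SMC4 and SMC1A is the library of overexpression course 1 that stood apart.

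For all 5 condensin genes the chase change was larger in the knockdown line, but the difference between the lines was called for none. Of all 12280 genes tested, the difference was below 0 for 6097. In the knockdown line alone SMC4 rose by 1.08, NCAPG by 0.92 and NCAPD2 by 0.78 on the log2 scale, 3 of 10 members called higher where 1.01% of 11909 genes were. The values in the overexpression line alone, where 0 members were called, were 0.46, 0.23 and 0.05. The interaction of line and time was 0.62 for SMC4 (SE 0.21, adjusted p = 0.764), 0.69 for NCAPG (SE 0.25, adjusted p = 0.799) and 0.73 for NCAPD2 (SE 0.22, adjusted p = 0.593). SMC2 was at 0.47 (SE 0.25) and NCAPH at 0.32 (SE 0.36). SMC4, NCAPG and NCAPD2 had an unadjusted p under 0.05, as had 721 of 12280 genes (5.87%). EdgeR called 2 of all genes (0.0163%) and DESeq2 13, with 0 members among them. Some related lists lay near the condensin median of 0.62. The median interaction was 0.59 for the 8 mitotic and proliferation genes, with 0 below 0, and 0.51 for the 14 cohesin regulators, with 3 below 0. Cohesin was at 0.10, condensin II at 0.16 and SMC5/6 at 0.09, and no gene of these lists was called. AURKB was at 0.96 (SE 0.25, adjusted p = 0.337). The interaction shares its 0 and 1440 min libraries with the comparison of the chase.

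The deposited intervals place many reads of some members outside the end of the transcript. For SMC4, 74.0% of its 832477 reads lay upstream of the most downstream interval (chr3:160433810-160434962, in the last of 24 exons), in 11 intervals that all fall inside coding exons 6 to 16 of the GENCODE v44 canonical transcript. Exon 10 (chr3:160416251-160416415) alone held 24.2% of the reads and exon 7 (chr3:160412326-160412453) 20.0%. For SMC1A, on chromosome X, 45.6% of the reads lay upstream, nearly all in exon 4 (chrX:53413232-53413379, 41.5%). The share was 13.9% for NCAPG, 9.43% for STAG1 and 1.06% for NCAPD2, and at most 0.188% for the other 5.

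The libraries were primed with oligo(dT), and the exons were therefore read for stretches rich in A. The run of 20 bases with the most A in each interval is shown for the 2 exons of SMC4 with the most reads, for 2 with few reads and for exon 4 of SMC1A, 5′ to 3′ on the strand of the mRNA, with A in capitals (hg38).
SMC4 exon 10, 201296 reads, 16 of 20 A, chr3:160416333-160416352: AAAAAgAgAAAgAAgAAAAA
SMC4 exon 7, 166703 reads, 13 of 20 A, chr3:160412408-160412427: AAAAtgAAAtAtttAgAAAA
SMC4 exon 13, 1529 reads, 11 of 20 A, chr3:160420847-160420866: AAActtccttAAAAgAcAAA
SMC4 exon 15, 372 reads, 12 of 20 A, chr3:160423780-160423799: AAgcAAAgtAAtgAAAggAA
SMC1A exon 4, 47111 reads, 12 of 20 A, chrX:53413235-53413254: AAgcAAAgcAggAgAAAgAA
The SMC4 exons with few reads held 11 and 12 A, and exon 4 of SMC1A, with its 47111 reads, held 12. Whether reads begin at these stretches was not tested.

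**Figure D4:**
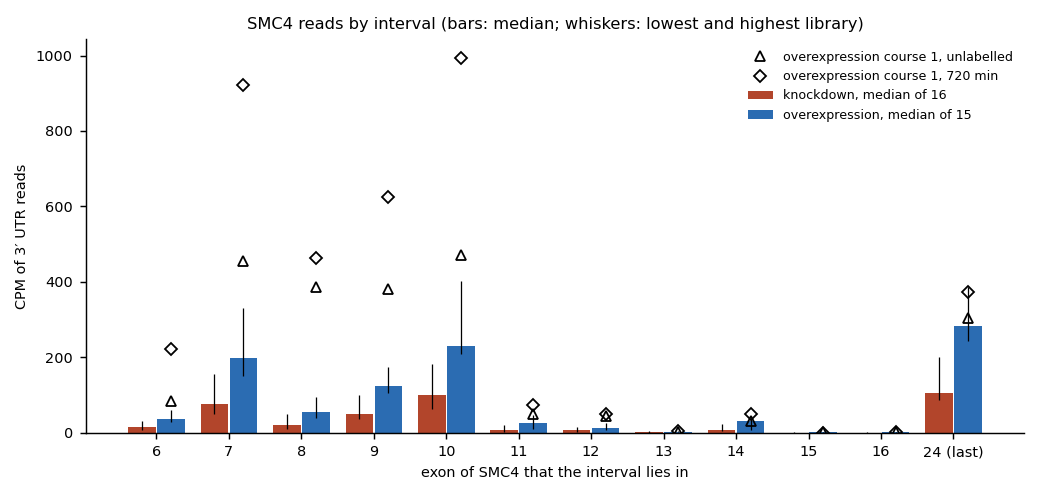
CPM of SMC4 by interval, ordered along the gene and named by exon, as medians of 16 knockdown and 15 overexpression libraries with whiskers from the lowest to the highest, and as single symbols for the unlabelled and 720 min libraries of overexpression course 1. In exon 10 these libraries reach 470.8 and 993.1 CPM while the other overexpression libraries reach at most 402.0 CPM, and in the last exon all overexpression libraries lie between 243.2 and 385.9 CPM.

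In the overexpression libraries that stood apart the high SMC4 values lay in upstream reads. In the 720 min library of overexpression course 1 the total was 3773 CPM, and the most downstream interval held 371.7 CPM, within the 243.2 to 385.9 CPM of the other overexpression libraries. Upstream reads made up 86.3% and 90.1% of SMC4 in the 2 overexpression libraries that stood apart and 68.0% to 77.4% in the other 15. In the knockdown line the share was 62.3% to 80.2%. It was 68.3% in the unlabelled library of knockdown course 1, which stood apart and whose most downstream interval held 204.7 CPM of SMC4, above the 85.3 to 199.6 CPM of the other 16. With the most downstream interval alone, SMC4 had a log2 fold change between the lines of -1.16 (SE 0.12, adjusted p = 0.000315) in place of -1.47, SMC1A of -0.76 (adjusted p = 0.00326) in place of -0.92 and NCAPG of -0.61 (adjusted p = 0.00751) in place of -0.69, and all 10 members were called lower, as were 9.71% of 12417 genes. At 0 min the conversion rate in the last exon was 1.12% in the knockdown line and 1.13% in the overexpression line. For upstream intervals, those with at least 10000 covered T bases over the 0 min libraries of both lines together were read. The rate ran from 0.0951% to 1.15% in the knockdown line and from 0.652% to 1.13% in the overexpression line, with the highest values in exon 10. The 0.0951% was that of chr3:160419358-160419543, with 0.829% in the overexpression line. This interval had 16961 covered T bases over both lines, so its rate per line rests on fewer.

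Label content was asked next, as the share of T bases read as C at 0 min less that of the unlabelled library of the course. Of the members, 9 had enough reads, and none was called between the lines by limma, nor was any of 6599 genes (0.00%), with 396 (6.0%) at an unadjusted p under 0.05. RAD21 was at 1.08% and 1.02% in knockdown courses 1 and 2 and at 1.12% and 1.03% in overexpression courses 1 and 2. STAG2, SMC4 and NCAPD2 also lay within 0.1 of 0 on the log2 scale, at -0.01, -0.01 and 0.09, with SEs of 0.17 to 0.19. The widest gap was that of STAG1, at 0.642% and 0.530% against 1.07% and 0.977% (log2 of -0.81, 95% interval -1.46 to -0.15, unadjusted p = 0.0231, adjusted p = 0.796). This gap rests on the 0 min libraries alone. After s4U was withdrawn STAG1 reached 1.37% at 45 min in knockdown course 1 and 0.932% at 90 min in knockdown course 2. The overexpression courses reached 1.32% at 90 min in course 1 and 1.32% at 10 min in course 2. SMC3 was at 1.03% and 0.831% against 1.19% and 1.39%, a log2 difference of -0.47 (95% interval -0.94 to 0.00). Over all genes tested the median was -0.09.

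Label was then lost over the chase. At 180 min the 10 members kept a median of 75.7% to 91.2% of the 0 min rate in the 4 courses, at 360 min 34.2% to 39.1% and at 720 min 1.66% to 5.49%. Over genes with at least 10000 covered T bases in each library the medians were 75.4% to 81.0%, 33.4% to 46.7% and 1.97% to 9.72%. The medians of the members include NCAPH, which fell short of this coverage in knockdown course 1, so the sets are not alike. Both low ends at 720 min came from overexpression course 1, whose library stood apart. The lowest of the other courses was overexpression course 2, at 3.28% for the members and 5.31% for all genes. RAD21 kept 31.5% (95% Wilson interval 28.4 to 35.0) and 30.7% (27.9 to 33.7) at 360 min in the knockdown courses and 31.8% (29.8 to 33.8) and 39.5% (36.9 to 42.2) in the overexpression courses. The intervals cover counting error only, since reads carry no molecular identifiers. NCAPD2 kept more, with 59.0% and 44.2% in the knockdown courses and 57.9% and 48.4% in the overexpression courses. SMC3 kept 29.7% and 49.9% in the knockdown courses and 19.6% and 13.2% in the overexpression courses, so its lines did not overlap, with the knockdown courses higher, as for 29.4% of 4523 genes with enough coverage. For RAD21, STAG2 (32.0% and 28.3% against 35.8% and 38.8%) and NCAPG (24.4% and 23.4% against 38.7% and 32.2%) the knockdown courses were lower without overlap, as for 8.58% of these genes, so that 1 of 9 members lay one way and 3 of 9 the other.

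**Figure D5:**
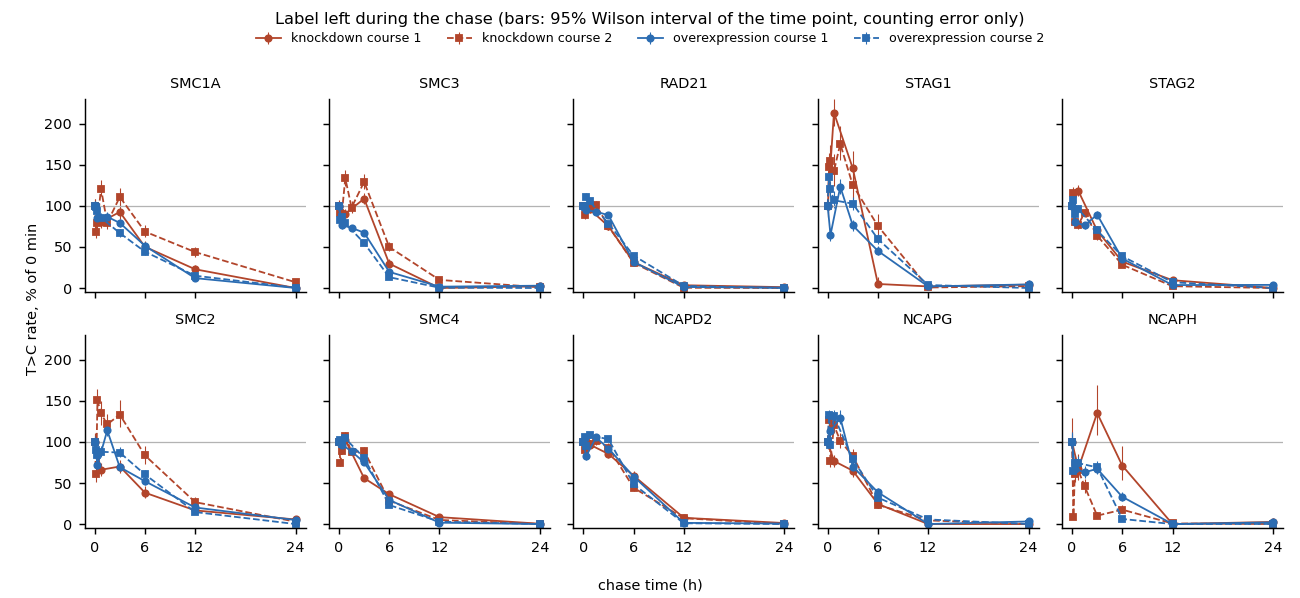
Background-corrected T>C rate of each member as a percentage of the 0 min value of its course, against chase time in h, with 95% Wilson intervals of the time point. RAD21 and NCAPD2 fall along closely spaced lines, and the knockdown courses of SMC4 differ at 180 min, at 55.9% and 89.1%. STAG1 rises to 213.6% in knockdown course 1 before it falls, and NCAPH drops to 8.81% at 10 min in knockdown course 2.

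An exponential decay fitted these curves in 36 of 40 cases at an R2 of at least 0.6, all 20 in the overexpression courses, 9 of 10 in knockdown course 1 and 7 of 10 in knockdown course 2. The fits left out were STAG1 in both knockdown courses (R2 of 0.425 and 0.420) and SMC2 and NCAPH in knockdown course 2 (0.514 and 0.291). At 0 min NCAPH had 8301 and 16416 covered T bases in the knockdown courses, STAG1 29386 and 32057 and SMC2 51164 and 56699, while RAD21 and SMC4 had over 100000. The part of coverage in the poor fits was not tested. Half-lives ran from 2.54 to 10.4 h.

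For the 7 members with a half-life in all 4 courses, limma called no difference between the lines, nor for any of 3320 genes (0.00%), of which 299 (9.01%) had an unadjusted p under 0.05, as had 1 member, SMC3. NCAPD2 had 6.03 and 5.90 h in knockdown courses 1 and 2 and 6.19 and 5.93 h in the overexpression courses, a log2 difference of -0.02 (95% interval -0.63 to 0.59). RAD21 had 4.22 and 4.53 h against 4.78 and 4.83 h (-0.14, interval -0.82 to 0.55). SMC4 had 3.98 and 4.78 h against 4.21 and 4.17 h (0.06, interval -0.67 to 0.78).

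STAG2 had 4.53 and 3.75 h against 4.68 and 4.46 h (-0.15), and NCAPG 3.27 and 4.83 h against 5.26 and 4.94 h (-0.36). The narrowest of these intervals, that of NCAPD2, reached from -0.63 to 0.59, so even for this gene changes of that size lie within the error. The interval is not the detection limit of the test, which called no gene with 2 courses per line.

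The SMC genes of cohesin had the highest mean half-lives of these 7 members in the knockdown line, at 8.43 h for SMC1A and 6.41 h for SMC3. SMC3 had 5.07 and 7.75 h against 3.25 and 2.54 h, a log2 difference of 1.13 (95% interval 0.32 to 1.93, unadjusted p = 0.0117, adjusted p = 0.503). SMC1A had 6.44 and 10.4 h against 5.57 and 4.78 h, a log2 difference of 0.67 (interval -0.05 to 1.38, adjusted p = 0.545). When the decay was fitted from 180 min on, the differences were 0.26 for SMC3 and 0.17 for SMC1A, while SMC4 moved to 0.51. In the most downstream interval alone SMC4 was at -0.28. The median over all genes tested was 0.20, and over the 7 members -0.02. Without the 720 min library of overexpression course 1 NCAPD2 in that course had 8.30 h in place of 6.19 h and NCAPG 6.60 h in place of 5.26 h.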

How the data were processed

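The members and gene lists were chosen with earlier results of these data known. The authors' sequencing service made 3′ end libraries (QuantSeq FWD, 75 ng of RNA, 100 nt reads) and ran SLAMdunk 0.4.3 on hg38. The deposited counts are raw reads, covered T bases and conversions per 3′ UTR interval. The deposited CPM column is relative to mapped reads and served to recover their number, and the deposited conversion fraction equalled conversions over covered T bases. No source used here gives the annotation release.

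Intervals were summed per symbol, and 1168 with the names of more than 1 gene were dropped (between 2.28% and 2.74% of the reads). CPM here is relative to all 3′ UTR reads, scaled by TMM (factors of 0.959 to 1.05). Counts were tested with edgeR 4.0.16 (filterByExpr) and DESeq2 1.42.0 as an alternative, rates with limma 3.58.1, in R 4.3.3, with Benjamini-Hochberg adjustment over all genes. Half-lives followed the study's methods (1 CPM, 4 time points, unlabelled rate subtracted), except that the study's omission of early time points with few labelled genes was not applied, without 7814 intervals of over 10% multimapped reads, and took fits with an R2 of at least 0.6. Label content required 10000 covered T bases. A gene is called at an adjusted p under 0.05. Sequences came from hg38 and RefSeq. All members were named. Of the lists, condensin II was given in full and of the others the up to 4 genes per direction with the largest change that passed. NIPBL, MAU2, WAPL, SMC1B, RAD21L1, STAG3, REC8 and the marker genes were named after their values were seen. The scripts were tested on simulated data. The alternatives were other tools, scalings, filters, libraries, intervals, a replicate block and leaving out each course. The most downstream interval of each gene as an alternative was chosen after seeing the data.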

Additional observations from a re-analysis of the deposited data

How the results depend on the processing

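The members kept their direction between the lines under all 15 alternatives, and 137 of 150 member values kept their side of the threshold. The exceptions were all 10 in the unlabelled libraries alone and STAG2 in 3 settings. Leaving out each course in turn left 9 to 10 members called lower, and 1992 to 2385 genes called in place of 2885. The total was 5251 with the replicate block, 5311 over all 34 libraries with time as a covariate, 1870 at 0 min alone and 4 in the unlabelled libraries alone, where 0 members were called. For the label, where no gene was called, DESeq2 called 2 genes, the fit with no low-count filter 14, and that without both first courses 85. For the chase, 552 genes were called. The number was 861 with DESeq2, 226 in the knockdown line alone, 76 in the overexpression line alone, 6 at 720 over 0 min, 89 at 360 over 0 min, and 281 to 348 without each course in turn. Members called higher were 2, and 1 to 3 without each course in turn (1 without either knockdown course), and 0 in the overexpression line alone, at 720 and at 360 min. The interaction, with 2 genes called, gave 13 with DESeq2, 16 with no low-count filter, 19 with the replicate block and 3 to 5 without each course. Half-lives gave 1 called gene when 720 min was left out of all courses. The cause of these changes was not tested beyond the samples and genes that each setting leaves out. Deviations of the summed courses of the same number correlated between the lines at 0.47, which leaves a pairing for the line difference possible. Those of same-numbered libraries within a line correlated at 0.15 and 0.18 (knockdown) and at 0.09 and 0.03 (overexpression). With 2 numbers and no label that ties them, the numbers were not treated as pairs. The block changed the call of 1 member, NCAPD2 in the chase (0.41, adjusted p = 0.0409). Signs of values that were not called changed in 22 member values of the label, 13 of the chase, 6 of label content, 5 of half-life and 4 of the interaction. Covered T bases, which set the counting error of label values, were fewest for NCAPH in the knockdown line.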
